A study of Homo sapiens with 6 samples.

Results

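The miR-30-5p Argonaute sites are the crosslinked positions that the authors' seed annotation assigns to the family of hsa-miR-30a-5p. They number 450 of the 16230 positions listed in the series. They were chosen by the name of the seed alone, with every type of seed match and every transcript feature kept. Another 9799 listed positions carry the seed of a different microRNA family and 5981 carry none. The positions come from PAR-CLIP of Argonaute in HK2, an established human cell line derived from proximal tubule epithelium. In this assay living cells take up 4-thiouridine, ultraviolet light links it to bound protein, and the linked base is read as a base change in the sequenced RNA.

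The libraries compared are 2 anti-Argonaute libraries from wild-type HK2 cells given TGFbeta1 at 20 ng/mL for 24 h, against 2 anti-Argonaute libraries from wild-type control HK2 cells. All were serum starved for 24 h, labelled with 100 µM 4-thiouridine during the final 20 h, then exposed to 365 nm light. The protocol text is the same for every sample and names TGFbeta1, so the treated and control libraries were told apart by the treatment label. The series also holds 2 IgG libraries, which were not analysed here; sites therefore have no IgG level to set against. HK2 is a single cell line, and 0 of 9 proximal tubule markers held a listed site. KRT18, a keratin of simple epithelia, was the one general epithelial marker of 5 with a site, and markers of fibroblasts, endothelium, leukocytes and podocytes held none.

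The miR-30 family is abundant in kidney epithelium, and its members share the seed, the bases of the microRNA that pair first with a target. Argonaute holds the microRNA with the seed exposed, and a bound transcript is usually repressed through the TNRC6 proteins. Published targets of the family include genes of the TGF-beta response, of the epithelial to mesenchymal transition and of autophagy.

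The mature sequences show what the members of the family share. In the RefSeq records on GRCh38.p14 the seed, bases 2 to 8, is in capitals.
hsa-miR-30a-5p: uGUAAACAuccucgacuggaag
hsa-miR-30c-5p: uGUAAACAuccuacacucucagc
hsa-miR-30e-5p: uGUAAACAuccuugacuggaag
The miR-30a gene lies on chromosome 6, the miR-30e gene on chromosome 1, and miR-30c is encoded on both chromosomes. All 3 share their first 12 bases. miR-30a and miR-30e are identical at 21 of 22 bases, whereas miR-30c matches either at 17 of 22. The family as annotated by the authors also names miR-30d. A target with a complete match to bases 2 to 8 therefore does not tell the members apart.

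The next sequences are those of 5 sites that differed between TGFbeta1 and control libraries and of 3 more among the 10 most crosslinked. Each is a 30 nt window in transcript orientation, with the seed match in capitals. Base 16 is the crosslinked T. It stands in capitals where it is itself part of the match.
INHBA upstream of the pair: taataggtttgaaacTGTTTACctgagaga
INHBA downstream of the pair: tttaatcGTTTACtatttgcactacaatgg
BMT2: tgctataaattctgatTGTTTACagatgtt
AHNAK upstream of the pair: actgctgagagctccTGTTTACtaagcaag
AHNAK downstream of the pair: aagcttttgTGTTTAttatcctcattttta
PIP4K2B: tgtgtgttttgtatatTGTTTACattttga
USP37: aatttgtgatgtctttgcTGTTTACatgca
CALR: ccttcttcaggatgatgaGTTTACacacct
On hg38 these windows are chr7:41688860-41688889 and chr7:41688686-41688715 (both minus) for INHBA. BMT2 is at chr7:112819707-112819736 (minus), and the AHNAK windows are chr11:62516442-62516471 and chr11:62516415-62516444 (both minus). PIP4K2B is at chr17:38767492-38767521 (minus), USP37 at chr2:218454245-218454274 (minus) and CALR at chr19:12940233-12940262 (plus). The CALR window is coding sequence and the others are 3′ UTR, per the authors' annotation. BMT2 and PIP4K2B show the commonest arrangement among the miR-30 sites, with the crosslinked T directly 5′ of a full 7 nt match. The downstream INHBA and AHNAK sites differ from it, since their 6 nt matches begin 8 and 6 nt upstream of the crosslink.

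Complete seed matches were the commonest type at miR-30 sites. A 7 nt match to bases 2 to 8 was present at 244 sites (54.2%), which carried 71.8% of the crosslinked reads at miR-30 sites. A 6 nt match to bases 3 to 8 was present at 116 sites, one to bases 2 to 7 at 65, and a match with a bulge at 25. At positions assigned to other families the 7 nt match made up 28.7%. By this share miR-30 ranked 4 of the 42 families, after miR-22 (55.7%), the miR-25 family (55.6%) and let-7 (54.4%). Among 42 families miR-30 had the second most 7 nt sites, after let-7 with 297, and the third highest value in the authors' score of microRNA reads, 50330 against 376262 for miR-21 and 97405 for let-7, all scaled to the library total.

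Most miR-30 sites lay in 3′ UTRs. These were 288 of 450 sites (64.0%) and 80.3% of the reads, the highest share of 3′ UTR sites of the 42 families. At the sites of all other families the 3′ UTR share was 44.4%. Single families came close to miR-30, with 62.7% for miR-148, 61.9% for miR-99 (21 sites) and 60.7% for miR-21. Introns held 64 miR-30 sites and coding sequence 56, with 15 in noncoding RNAs and 10 between genes. The type of match differed with the feature: 179 of the 288 sites in 3′ UTRs (62.2%) had the 7 nt match, and 16 of 64 in introns. Intronic sites were also weakly crosslinked, with a median of 4.5 reads over the 4 libraries against 12.5 in 3′ UTRs. This was not particular to miR-30, since sites of other families had medians of 5 and 12.

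The crosslink was close to the 5′ end of the match. Of the 244 sites with a 7 nt match, 122 had the match starting 1 nt downstream of the crosslinked T and 70 had the T as the first base of the match. Together with starts at 2 and 3 nt these were 88.5% of sites (95% Wilson interval 83.9 to 91.9, counting error only), against 68.3% (66.6 to 70.0) for other families. The miR-30 match begins with T, which a crosslink at its first base requires. Among other families whose match also begins with T the share was 76.1% (72.3 to 79.6) of 528 sites, and the interval did not overlap that of miR-30. That interval pools the sites of those families, leaves out the spread between them, and compares miR-30 with no single one. The T was the first base of the match at 28.7% of miR-30 sites and at 14.4% in those families. Sites with the match at 0 to 3 nt had a median of 14 reads, against 5.5 where it lay elsewhere. For 7 nt matches of all other families these medians were similar, at 15 and 6.

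**Figure D1:**
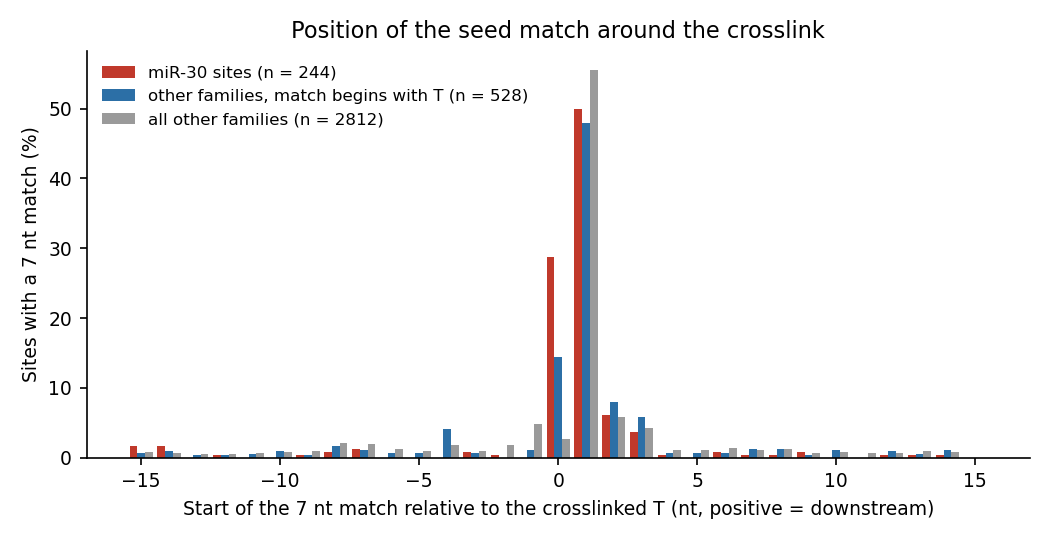
Start of the 7 nt match relative to the crosslinked T (x axis, nt, positive values downstream) against the share of sites with such a match (y axis, %), for 244 miR-30 sites, 528 sites of other families whose match begins with T, and all 2812 sites of other families. The bars peak at 1 nt in every set, and the miR-30 bar at 0 nt (28.7%) is higher than that of the other families whose match begins with T (14.4%).

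An A in the transcript just after the match, opposite base 1 of the microRNA, is a feature of effective sites in general. Of 177 miR-30 sites with a 7 nt match in 3′ UTRs, 59.3% (95% Wilson interval 52.0 to 66.3) had it, against 47.5% (45.0 to 50.1) of 1473 sites of other families. A or T made up a median of 64.1% of the window outside the match at miR-30 sites and 62.5% at the others. Sites with the A had a median of 14 reads and those without it 13.5. Over all features the medians of miR-30 sites were 14 and 11, and in 3′ UTR sites of other families 18 and 14, and these differences were not tested. Motifs that would pair with bases 13 to 16 of the microRNA, where the members differ, were searched on the transcript strand. The search covered the part of each window upstream of the crosslinked T. GTCA, for miR-30e, was in 5.03% of miR-30 windows with a 7 nt match in 3′ UTRs. It was in 3.72% of such windows of other families and 3.47% of windows at all 3′ UTR sites, miR-30 sites included. GTCG, for miR-30a, was in 1.68%, 0.653% and 0.948% of these sets. GTGT, for miR-30c, was in 8.94%, 5.62% and 6.96%. These motifs are short, and few windows held any of them.

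The miR-30 sites were thinly covered apart from a small number. Whole reads were recovered from the deposited RPM, which are reads scaled to the total of the library. They show 5293207 and 3415699 reads in TGFbeta1 replicates 1 and 2, against 1714445 and 1926255 in control replicates 1 and 2. Crosslinked reads at miR-30 sites numbered 2976 and 3178 in TGFbeta1 libraries, against 1375 and 2177 in control libraries. A site had a median of 10 crosslinked reads over the 4 libraries, against 7 for all listed sites. Of the 450 sites 239 were crosslinked in every library, 4 in neither TGFbeta1 library and 16 in neither control library, beside the greater depth of the TGFbeta1 libraries. For all 16230 listed sites the same counts were 6145, 193 and 1874. Crosslinked reads were 22.4 and 23.03% of the reads covering miR-30 sites in TGFbeta1 libraries, against 28.8 and 28.3% in control libraries. Over all listed sites these were 17.99 and 21.2% with TGFbeta1, against 25.8 and 28.3% in control.

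Of the 450 sites 10 had no gene name and the others lay in 379 named genes, of which 334 held 1 miR-30 site and 39 held 2. At 70 sites a seed of a listed family also lay close to the crosslink, most often that of miR-26 (8 sites). Counting every other listed seed that the annotation names for a site, close or not, 253 of the 450 sites had none. No miR-30 sites shared a seed match with each other, although 8 lay within 31 nt of another. The genes with 3 or more were MALAT1 and NEAT1, which are nuclear noncoding RNAs, DCBLD2, a neuropilin-like membrane protein, CNOT9, a subunit of the CCR4-NOT deadenylase, DESI2, a member of the desumoylating isopeptidase family, and HS3ST3A1, a heparan sulfate sulfotransferase. DCBLD2 had 9, of which 7 were intronic, but they took 0.745% of its reads in TGFbeta1 libraries and 0.690% in control. MALAT1 had 7 with 39 and 34 reads in TGFbeta1 libraries, against 26 and 18 in control. The 3 sites of CNOT9, all in its 3′ UTR, had 4 and 8 reads in TGFbeta1 libraries, against 13 and 8 in control. None of these 6 genes passed the test of gene sums described below, and their numbers of miR-30 sites went with long lists of sites for the noncoding RNAs, DCBLD2 and HS3ST3A1, which had 40 to 428 listed sites each.

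The main comparison asked which miR-30 sites changed with TGFbeta1. The downstream site of INHBA, which encodes the subunit of activin A, a ligand of the TGF-beta family, rose. The upstream INHBA site was also called higher, but it entered the test only through the TGFbeta1 libraries. The site of BMT2, a sensor of S-adenosylmethionine upstream of mTORC1, and the upstream site of AHNAK, a very large scaffold protein, fell. The downstream AHNAK site was also called lower, but it entered the test only through the control libraries. Crosslinked reads were compared as log2(RPM + 1) after TMM scaling, with limma across all sites that passed a filter on low counts. Of the 450 miR-30 sites 46 passed that filter, and 6 passed the test at adjusted p under 0.05, 3 higher and 3 lower. These 6 include the upstream INHBA and downstream AHNAK sites, whose calls give no separate support because the filter kept them through their high group. Over all 1059 sites tested 7.08% passed, 3.68% higher and 3.40% lower.

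The downstream INHBA site had 155 and 180 reads in TGFbeta1 libraries, against 12 and 40 in control libraries. Its scaled mean was 49.6 ± 2.61 RPM with TGFbeta1 and 10.2 ± 5.05 RPM in control (SD, n = 2 each), with a log2 difference of 2.25 ± 0.30 SE (limma adjusted p = 1.84e-05). This site has the 6 nt match 8 nt upstream of its crosslink, and the authors' annotation also names the seed of the miR-148 family close by. TTGCACT, the 7 nt match to the seed of miR-301a, starts 1 nt downstream of the crosslinked T and overlaps the miR-148 match. It is in 1 of the 450 miR-30 windows and in 1.18% of all windows listed, searched on the transcript strand. The miR-301a seed is not among the 42 families that the authors listed. The upstream INHBA site, with a full match that starts at the crosslink, had 40 and 48 reads in TGFbeta1 libraries, against 4 and 7 in control libraries. Its scaled mean was 5.63 times as high with TGFbeta1 (log2 difference 2.08 ± 0.43 SE, limma adjusted p = 0.00291). Without TMM scaling, with no filter, or without either TGFbeta1 library, neither INHBA site passed, with limma adjusted p from 0.077 to 0.327.

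The BMT2 site had 23 and 30 reads in TGFbeta1 libraries, against 30 and 59 in control libraries that were sequenced less deeply. The scaled values, 7.08 and 8.57 RPM with TGFbeta1 against 16.6 and 20.3 RPM in control, did not overlap (log2 difference -1.14 ± 0.33 SE, limma adjusted p = 0.0334). The upstream AHNAK site had 21 and 21 reads in TGFbeta1 libraries, against 30 and 41 in control libraries, or 6.23 ± 0.331 RPM on average against 15.4 ± 1.75 RPM (SD, n = 2 each; log2 difference -1.17 ± 0.35 SE, limma adjusted p = 0.0418). At this site the authors' annotation also names the seed of miR-28-5p and miR-708-5p close to the crosslink. The downstream AHNAK site had 1.85 and 1.71 RPM with TGFbeta1, against 9.95 and 7.92 RPM in control (log2 difference -1.83 ± 0.49 SE, limma adjusted p = 0.0216). The windows of the AHNAK pair overlap, so the same fragments can cover both sites, and their calls are not independent. All 3 sites were lower in both TGFbeta1 libraries than in either control library, an order partly set by the filter for the downstream AHNAK site. Each lost its call with no filter on low counts (limma adjusted p from 0.248 to 0.379) and when either TGFbeta1 library was left out (limma adjusted p from 0.25 to 0.459), the AHNAK sites also without control replicate 1 (0.12 and 0.0755) and BMT2 without control replicate 2 (0.0841). The BMT2 call was also lost without TMM scaling (0.0886), in reads that cover the sites with a crosslink in each library (0.0706) and without the variance trend (0.153), with a DESeq2 adjusted p of 0.0844. The upstream AHNAK call was also lost without TMM scaling (0.0841) and without the variance trend (0.140), with adjusted p of 0.0511 in edgeR and 0.129 in DESeq2. In all, 1 miR-30 site passed without TGFbeta1 replicate 1 and 1 without TGFbeta1 replicate 2, against 4 without control replicate 1 and 7 without control replicate 2. Over all 1059 tested sites the counts in the same fits were 3, 5, 102 and 116.

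**Figure D2:**
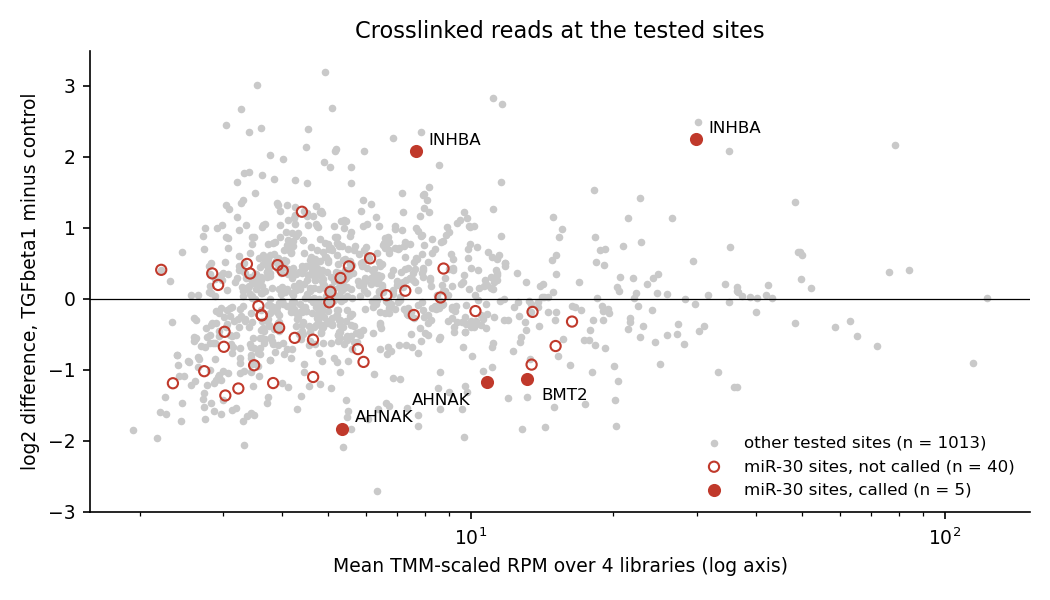
Mean TMM-scaled RPM over the 4 libraries (x axis, log) against the log2 difference, TGFbeta1 minus control (y axis), for 45 of the 46 tested miR-30 sites and the other 1013 tested sites. Both INHBA sites lie above 2, and the 3 called sites below 0 belong to BMT2 and AHNAK.

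The remaining 40 tested miR-30 sites had log2 differences from -1.36 to 1.22. The median over the 46 was -0.21, with 19 above 0 and 27 below, beside a median of 0.05 over all tested sites. Among the 10 most crosslinked sites, those of PIP4K2B, USP37, B3GNT5, GNPDA1, CALR and WDR82 did not pass. The PIP4K2B site, in the message of a phosphoinositide kinase, had 13.9 and 14.9 RPM in TGFbeta1 libraries, against 16.04 and 20.7 RPM in control libraries. The annotation also names the seed of miR-16-2-3p close to it. The USP37 site, in that of a deubiquitinase, had 8.62 and 14.6 RPM with TGFbeta1, against 21.01 and 16.2 RPM in control. Both were lower in each TGFbeta1 library than in either control library, but with limma adjusted p of 0.625 and 0.261. The site of GNPDA1, an enzyme of glucosamine metabolism, had 10.8 and 7.14 RPM with TGFbeta1, against 21.01 and 14.8 RPM in control (limma adjusted p = 0.102). It did pass with replicate number as a block (0.0367), without control replicate 2 (0.0224) and in reads that cover the sites with a crosslink in each library (0.00970). The sites of B3GNT5, a glycolipid synthase, and CALR, a calcium-binding chaperone of the endoplasmic reticulum, overlapped between the groups (limma adjusted p = 0.811 and 0.855). That of WDR82, a subunit of histone methyltransferase complexes, had 8.62 and 11.7 RPM with TGFbeta1, against 6.08 and 8.61 RPM in control (limma adjusted p = 0.612).

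**Figure D3:**
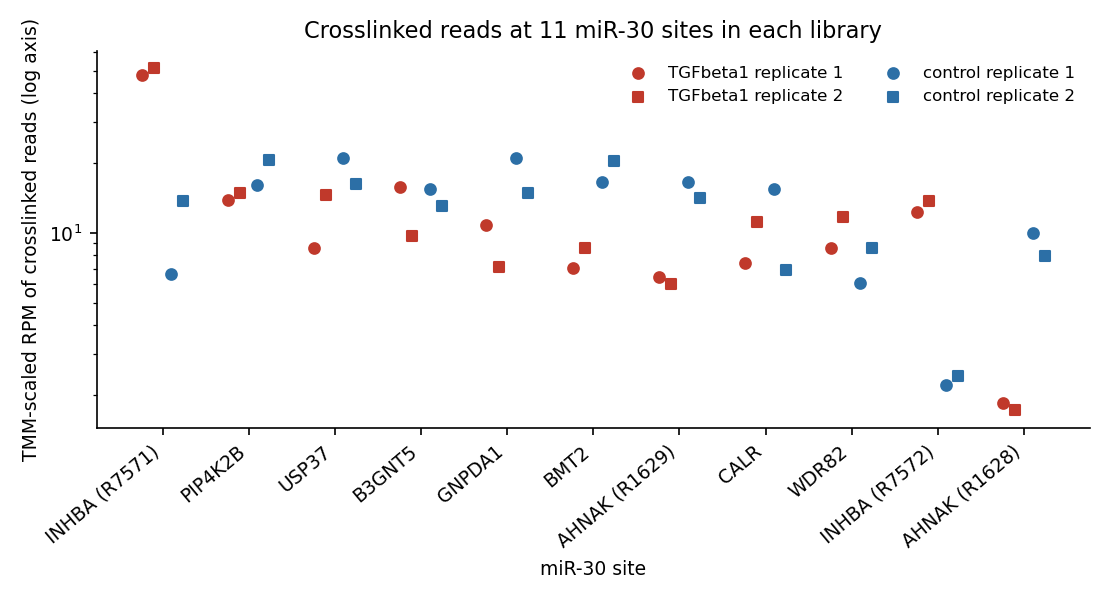
TMM-scaled RPM of crosslinked reads (y axis, log) in each of the 4 libraries for 11 miR-30 sites, those of INHBA, BMT2 and AHNAK and those of 6 sites that did not pass. The TGFbeta1 points of both INHBA sites lie over the control points, and the TGFbeta1 points of BMT2 and AHNAK all lie under the control points.

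For the genes of these sites, the crosslinked reads at the miR-30 sites were set beside those at the other listed sites of the gene. No measure of transcript level was used here, so more of a transcript and more Argonaute on each copy cannot be told apart. The 4 other sites of INHBA were 4.23 times as high with TGFbeta1, and its miR-30 sites took 31.8 and 32.5% of the gene's reads, against 24.2 and 35.3% in control. The miR-30 sites of INHBA therefore held a share with TGFbeta1 that was within the range of the control libraries.

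Values of single sites were scaled with TMM factors from sites, and values of other sites with factors from gene sums. The shares come from unscaled reads. The 17 other sites of AHNAK were also lower, at 8.22 and 12.2 RPM in TGFbeta1 libraries, against 29.3 and 25.5 RPM in control. In GNPDA1 the 1 other site had 11.6 and 9.11 RPM with TGFbeta1, against 20.5 and 24.4 RPM in control. The other sites of BMT2 were few, at 2.55 and 3.70 RPM with TGFbeta1, against 3.87 and 5.25 RPM in control. Its miR-30 site took 71.9 and 69.8% of the reads with TGFbeta1, against 81.1 and 80.8% in control. In AMOTL2, which encodes an angiomotin that binds YAP, the miR-30 site and the sum of the other sites went apart. The site had 8.01 and 7.14 RPM in TGFbeta1 libraries, against 7.74 and 6.20 RPM in control libraries, whereas the 9 other sites had 27.5 and 23.6 RPM with TGFbeta1, against 60.8 and 62.3 RPM in control. Most of that sum came from a single 3′ UTR site, with a mean of 36.4 RPM over the 4 libraries (log2 difference -1.24, limma adjusted p = 0.00212). The contrast is thus mainly between single sites. The miR-30 share of AMOTL2 reads was 21.1 and 23.1% with TGFbeta1, against 11.3 and 9.78% in control. In CALR the share was 9.30 and 17.97% with TGFbeta1, against 37.8 and 33.9% in control. With 2 libraries a group an exact permutation test cannot give a p under 0.333, and these differences in share were not tested in another way.

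**Figure D4:**
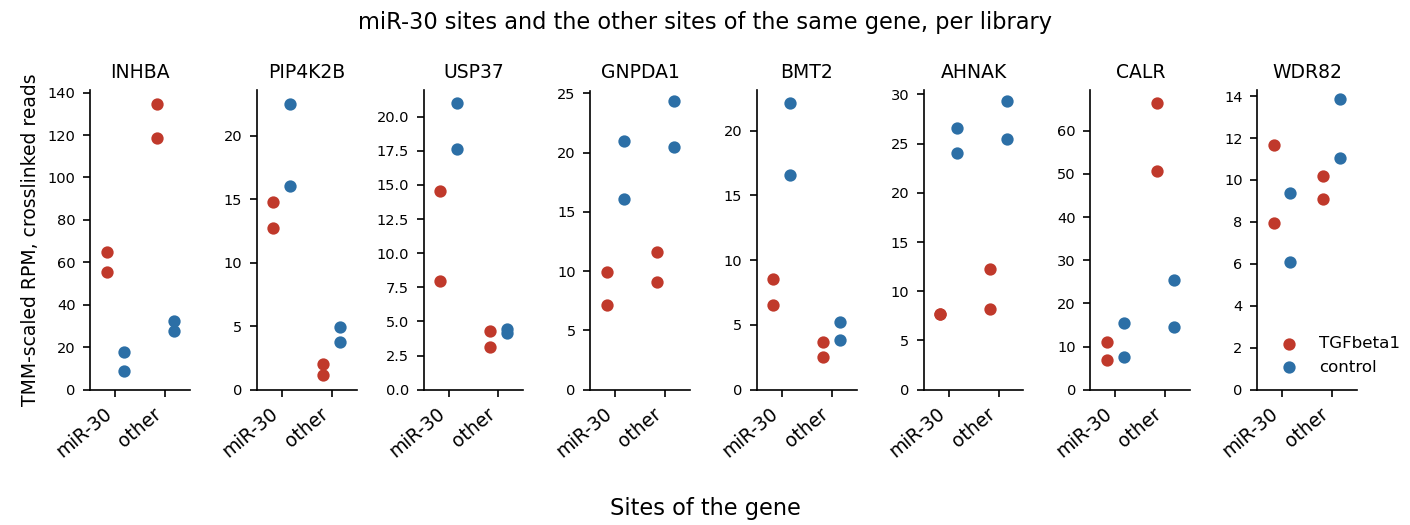
Summed TMM-scaled RPM of crosslinked reads (y axis, scale differs by panel) at the miR-30 sites and at all other listed sites of the same gene, per library, for 8 of the genes in the plot of single sites (B3GNT5, with few reads at its other site, is left out). INHBA is higher with TGFbeta1 in both columns, AHNAK and GNPDA1 are lower in both, and CALR is higher at its other sites alone.

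Summed over all of their sites, 226 of the 379 genes with a miR-30 site could be tested. The test passed 10, 5 higher and 5 lower, beside 3.08% of all 1266 genes tested (1.58% higher and 1.50% lower). FRMD6, an upstream regulator of the Hippo pathway that the study's title names, had 71.2 and 71.8 RPM in TGFbeta1 libraries, against 12.2 and 13.9 RPM in control libraries (log2 difference 2.37 ± 0.23 SE, limma adjusted p = 0.000455). Its 1 miR-30 site, a 6 nt match in the 3′ UTR, had 1 and 3 reads with TGFbeta1, against 0 and 3 in control. INHBA rose 4.32 times in scaled RPM, with a limma adjusted p of 0.000455. FN1, the matrix protein fibronectin, rose by 1.77 on the log2 scale, and 2 coding sites with full miR-30 matches had 3 and 9 of its reads with TGFbeta1, against 2 and 0 in control. ACTG1, a cytoplasmic actin, rose by 0.93 with 7 and 5 reads at its miR-30 site, against 1 and 3 in control. The changes of FRMD6, FN1 and ACTG1 as genes were thus carried by sites outside the miR-30 matches.

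The genes that fell were AHNAK, CLDN11, a tight junction claudin, GNPDA1, PEG10, an imprinted gene derived from a retrotransposon, and AMOTL2. AHNAK fell by 1.51, CLDN11 by 1.19, GNPDA1 by 1.09, PEG10 by 1.07 and AMOTL2 by 1.05 on the log2 scale. Their limma adjusted p ranged from 0.0105 for AHNAK to 0.043 for GNPDA1. PEG10 had 118 and 138 RPM in TGFbeta1 libraries, against 256 and 280 RPM in control libraries, and its miR-30 site held 1.44 and 2.48% of its reads with TGFbeta1, against 2.38 and 2.81% in control. The count of 10 fell to 4 without TGFbeta1 replicate 1 and to 5 without TGFbeta1 replicate 2. It was 0 without control replicate 1 and 0 without control replicate 2 in limma, with 33 and 41 genes at unadjusted p under 0.05. With all libraries edgeR called 15 and DESeq2 called 9.

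Over all 4361 genes with a listed site, 379 had a miR-30 site, a share to set beside that of each list below. The lists were chosen with earlier results of these data known, so a higher share in a list is a description and no evidence of enrichment. Of 77 published targets of miR-30-5p, 45 had a listed site of any kind and 15 had a miR-30 site. As genes 10 of the 15 could be tested, with a median log2 difference of 0.19 beside 0.02 over all genes tested, and 1 of the 10 rose and none fell. None of those named next passed. CCNE2, the cyclin E2 that drives entry to S phase, had 19 and 21 reads at its miR-30 site in TGFbeta1 libraries, against 3 and 25 in control libraries. IGF1R, a growth factor receptor, had 22 and 15 reads with TGFbeta1, against 0 and 19 in control. The 2 control libraries differed more from each other at these sites than the groups did. GALNT7, which starts mucin-type glycosylation, had 11 and 9 reads over 2 sites with TGFbeta1, against 8 and 12 in control. RUNX1, a transcription factor, had 7 and 10 with TGFbeta1, against 5 and 3 in control. The sites of BNIP3L, CELSR3, EED, EGFR, GALNT1, PPP3CA, RASA1, SOCS3 and TNRC6A had at most 8 reads in any library, and the site listed for EGFR lies antisense to it.

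The TGF-beta and SMAD list had 22 of its 32 genes with a site and 3 with a miR-30 site. INHBA passed the gene test, higher, and SKIL, a repressor of SMAD transcription, did not (log2 difference 1.07, limma adjusted p = 0.052), with 1 miR-30 read in 1 library of each group. In the list of the epithelial to mesenchymal transition and matrix FN1 and ITGA5, the fibronectin receptor subunit, had miR-30 sites, of 17 with any site. The ITGA5 site had 1 and 2 reads with TGFbeta1, against 1 and 5 in control. In the Notch list 7 of 14 genes had a site of some kind and 0 had a miR-30 site, too few genes to read as a result about the family. In the autophagy and lysosome list BNIP3L, a mitophagy receptor, was the one gene of 13 with any site that had a miR-30 site, with 1 and 0 reads with TGFbeta1, against 1 and 4 in control.

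Of the 31 ubiquitin ligases and deubiquitinases 25 had a listed site and 8 a miR-30 site, among them USP37, USP22, USP48, RNF220, SIAH2, UBE2D3 and WWP1. Of the 4 tested as genes none passed limma, and the median log2 difference was -0.22. USP22, a deubiquitinase of the SAGA complex, had 2 sites with full matches in its 3′ UTR. The upstream one of these had 4 and 6 reads in TGFbeta1 libraries, against 7 and 12 in control, and the downstream one 16 and 13, against 2 and 7. In the microRNA machinery list TNRC6A and TNRC6C, the silencing partners of Argonaute, had miR-30 sites, of 9 with any site. Neither passed the gene test. The TNRC6C site had 30 and 18 reads with TGFbeta1, against 4 and 23 in control, and the groups overlapped after scaling (9.24 and 5.14 RPM, against 2.21 and 7.92 RPM). TNRC6A had 2 and 4 reads with TGFbeta1, against 6 and 1 in control.

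The share of all crosslinked reads that fell on miR-30 sites was 3.97 and 4.40% in TGFbeta1 libraries, against 3.72 and 4.04% in control libraries. The difference of 0.303 percentage points was not beyond the spread between replicates (exact permutation test, two-sided, p = 0.667, smallest possible 0.333). Within 3′ UTR sites the share was 5.76 and 5.98% in TGFbeta1 libraries, against 4.84 and 4.80% in control libraries, a difference of 1.05 percentage points. For the 253 miR-30 sites with no other listed seed it was 2.55 and 2.93% with TGFbeta1, against 2.09 and 2.17% in control. That difference was 0.610. With a single site left out the difference turned to -0.546 over all sites and to -0.424 within 3′ UTRs, so in both the direction of the share rested on 1 site. In each of these 4 the groups did not overlap (exact permutation p = 0.333, the smallest possible). Counted in covering reads the difference was -0.0754 percentage points. Level per site over all match types was close to that of other families. In 3′ UTRs the geometric mean of RPM + 1 at miR-30 sites was 0.959 and 0.930 times that of sites of other families in TGFbeta1 libraries, against 0.998 and 1.04 times in control libraries. With 7 nt matches alone in both sets, a choice made after seeing the data, it was below 1 in every library. The ratios were then 0.898 and 0.854 with TGFbeta1, against 0.947 and 0.961 in control.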

How the data were processed

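Per the file headers the authors deposited, for each site and library, the reads that carry a crosslink and the reads that cover the position, both in RPM of the library total. The table also holds the authors' score of microRNA reads per seed, rounded, the offset of each seed match in nt and a 31 nt window. The authors' position list was not used. Per the submitters' processing notes STAR 2.7.1a, bcl2fastq 2.20.0.422, bedtools and hg38 were used; the crosslink caller is not given in the sources used here. Per the labels' protocols, RNA was trimmed with micrococcal nuclease, complexes of 100 to 150 kDa were isolated and 80 to 150 nt cDNA was selected, which limits the fragments seen. Another 4 columns of per-sample values were not used.

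All RPM values were whole multiples of 1 read (100% within 0.1 reads), which gave the reads and depths. The labels name no molecular identifiers, so intervals cover counting error only. Sites, and gene sums over all sites of a gene name, were kept by filterByExpr (minimum count 10) in edgeR 4.0.16. They were tested with limma 3.58.1 (trend in eBayes) in R 4.3.3, as log2 of TMM-scaled RPM plus a pseudocount of 1, with Benjamini-Hochberg adjustment over all tested rows. On this scale changes of low values are understated. Because values are RPM, edgeR and DESeq2 1.42.0 on recovered reads were alternatives. The limma script was tested on simulated data. Shares used exact permutation tests. The replicates may be technical, since the labels name no separate cultures, and p-values then measure only the spread between these libraries. Replicate numbers are shared by the groups, but deviations from the group means in same-numbered libraries had correlations of 0.117 (sites) and 0.131 (genes) with 2 pairs, too few to treat the numbers as a pairing.

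Named are all called miR-30 sites, the 10 most crosslinked, genes with 3 or more, genes of fixed lists with a miR-30 site, and called genes that hold one; sites of 2 genes entered every fit and total but are not reported here. The members and lists were chosen with earlier results of these data known. Alternatives varied scaling, pseudocount, filter, measure, replicates, test and members.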

Additional observations from a re-analysis of the deposited data

How the results depend on the processing

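Replicate number as a block, although not taken as a pairing, gave 7 called miR-30 sites (117 over all sites) and 11 called genes (35 over all genes), against 6 (75) and 10 (39), and a median of -0.21. The site count was 1 (28) without TMM scaling, 11 of 139 tested (203 of 3692) in reads that cover the sites with a crosslink in each library, which changes both the measure and the sites tested, and 1 to 7 (3 to 116) with a library left out; with no filter on low counts limma called 0, with 35 sites at unadjusted p under 0.05, while edgeR called 5 (82) and DESeq2 4 (42) with the filter. The gene count was 4 (29) without TMM, 3 (4) with no filter, 18 of 255 tested (84 of 1756) in that covering-read setting, 1 (3) without the variance trend and 0 to 5 (0 to 17) with a library left out. The share difference of 0.303 percentage points became 1.05 within 3′ UTRs, 0.610 for sites with no other listed seed, -0.0754 with covering reads and, in alternatives chosen after seeing the data, -0.546 with 1 site left out, -0.525 with all sites of 1 gene left out and -0.424 in 3′ UTRs with 1 site left out; it was 0.0875 to 0.519 with a library left out. The median log2 difference of tested miR-30 sites was -0.76 without TMM, beside -0.51 over all tested sites, 0.000101 with no filter, -0.33 in that covering-read setting and -0.44 to -0.086 with a library left out. The level ratio in 3′ UTRs, on average 0.982, was 1.05 from covering reads and 0.915 for 7 nt matches, that alternative also chosen after seeing the data. Among sites that were not called the sign changed for CALR (0.88 in those covering reads and -0.70 to 0.36 with a library left out, 0.09 without TGFbeta1 replicate 1), B3GNT5 (0.15 without TGFbeta1 replicate 2) and WDR82 (-0.17 without TMM). The causes were not tested. Only 46 of 450 sites could be tested, so most of the family has no test at this depth.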
